A study of Xenopus tropicalis with 39 samples.

Results

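The vegetal lineage of Xenopus tropicalis was followed from the 8-cell embryo to the explanted vegetal mass at stage 10.5, in 5 of the 39 samples of the series. The later group was the uninjected vegetal mass (n = 2), prospective endoderm cut out at stage 9 and harvested when intact embryos were at stage 10.5. The earlier group was the vegetal blastomeres separated at the 8-cell stage (n = 3). No morpholino or injected RNA is given for any of these 5 libraries. The 8-cell dissections came from 1 clutch, per the labels, so p-values measure only the spread between these samples. Libraries were made by Smart-seq2, which primes on poly(A) tails. For comparison, the animal lineage was followed from animal blastomeres at the 8-cell stage (n = 3) to uninjected animal caps, explants of prospective ectoderm (n = 2). Vegetal masses from embryos injected with morpholinos against both Vegt and Otx1 (Double MO), Otx1 alone or Vegt alone (n = 2 each), caps from embryos injected with vegt RNA (n = 2 per amount) and whole 8-cell embryos (n = 3) were used only where named. Morpholinos are antisense oligomers used to stop an RNA from being translated or spliced.

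The egg loads the embryo with maternal RNA, and the first divisions run on that store while the zygotic genome is largely silent. Around the mid-blastula transition the genome becomes active, and maternal RNAs are cleared while zygotic RNAs accumulate. In frogs some maternal RNAs are anchored in the vegetal cortex. Among them is the RNA for the T-box factor Vegt, which is required for endoderm formation. Otx1 is a homeodomain transcription factor. In oocytes and early embryos a poly(A) tail can be shortened or lengthened without any change in the number of molecules. For poly(A)-primed libraries, less RNA and a shorter tail therefore cannot be told apart.

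The question was which RNAs appeared and which were lost between the 2 stages. The stages were measured in separate experiments, so stage and experiment cannot be told apart, and only large differences are reported. A feature was called gained or lost where the edgeR quasi-likelihood test gave an adjusted p under 0.05, the difference was at least 4-fold and the scaled values of the masses and of the vegetal blastomeres did not overlap. The tables list 26550 gene models and 5684 models of long non-coding RNA (lncRNA). The files give them identifiers without gene names, so the identity and function of single features are not described here. Estimated counts summed to 12840293 and 12254209 in the masses, and to 14621974, 11587558 and 9005402 in vegetal blastomeres 1, 2 and 3. Vegetal blastomere library 3 was unlike the others: 64.3% of its features were at 0, and a single feature (1) took 7.05% of its TPM.

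Of 14745 tested features, 693 were gained in the masses, which was 4.7% of those tested. Another 325 were lost, which was 2.2%. Gains thus made up 68.1% of the 1018 calls. The median log2 difference over all tested features was 0.23. With library totals as the only scaling, 798 were gained and 216 lost, 78.7% of the calls. Leaving out 1 library gave 508 gained and 357 lost without mass 1, 357 and 117 without mass 2, 314 and 61 without vegetal blastomere library 2, and 1697 and 657 without library 3. Without library 1, edgeR called 0 and 0, with 3871 features at an unadjusted p under 0.05 and a smallest adjusted p of 0.064. In that fit 3438 features were still at least 4-fold higher and 808 at least 4-fold lower without overlap.

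**Figure D1:**
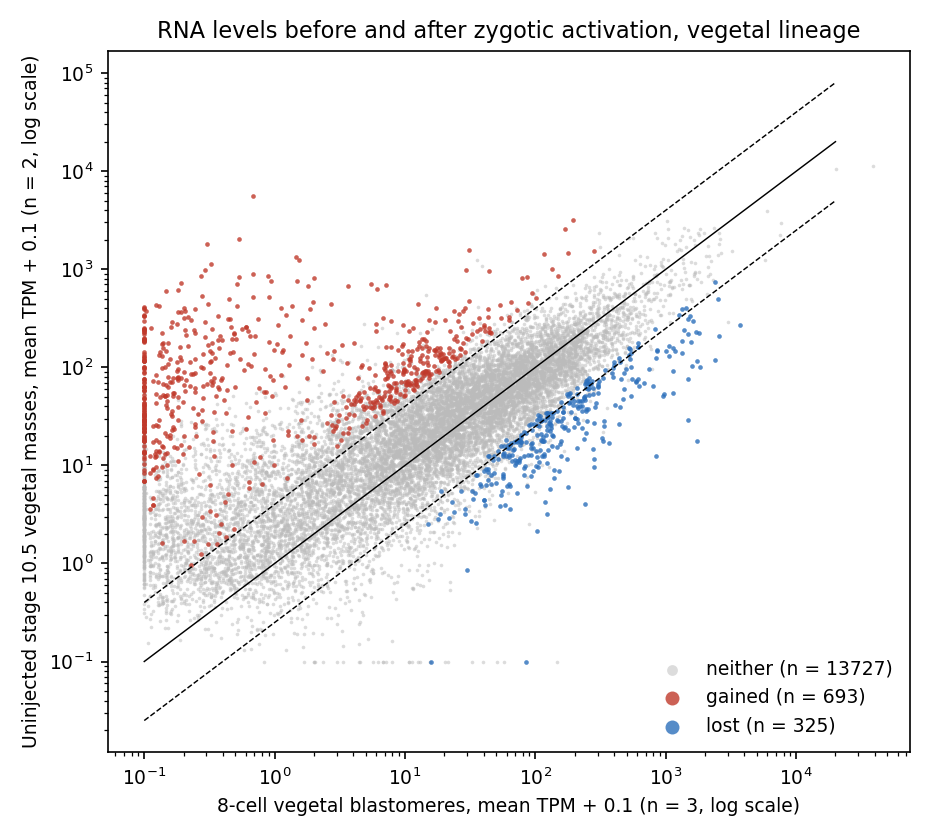
Mean TPM + 0.1 in the 2 uninjected masses (vertical, log scale) against the 3 vegetal blastomere libraries (horizontal, log scale), 1 point per tested feature, with equality as a solid line and 4-fold differences as dashed lines. The 693 gained features reach down to 0 TPM at the 8-cell stage, while most of the 325 lost features keep 10 TPM or more in the masses.

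As fold differences, gains were much larger than losses. Many gained features started near 0 TPM, where a small amount of RNA gives a large fold difference. The fold differences therefore do not compare the amounts of RNA gained and lost. The median log2 difference of the gained features was 6.74, with quartiles of 2.90 and 9.84, and 410 of the 693 were at least 16-fold higher in the masses. The median of the lost features was -2.84, with quartiles of -3.48 and -2.39, and 42 of the 325 were at least 16-fold lower. The size of the difference was part of the rule, so these medians are descriptions. At the 4-fold edge, the smallest gained difference was 2.004 on the log2 scale and the nearest one outside was 1.999. On the lost side the nearest one outside was -1.993. A further 69 higher and 88 lower features met the other criteria but fell short of 4-fold.

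The gained features were mostly absent or near absent before. Their median level was 82.7 TPM in the masses, against 0.533 TPM in the vegetal blastomeres. TPM, a transcript level scaled by length and library, comes here from tables that the authors made separately for each experiment. In the masses 653 of the 693 reached 10 TPM, 298 reached 100 TPM and 12 reached 1000 TPM. In the vegetal blastomeres 377 averaged under 1 TPM, and 228 of these were under 0.1 TPM.

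A group of 115 gained features had 0 estimated counts in every vegetal blastomere library, and 29 of these also had 0 in all 9 libraries of the 8-cell table. The 115 had a median of 42.8 TPM and a highest mean of 413 TPM in the masses. Against a floor of 3 counts over the 3 vegetal libraries, they were at least 106-fold higher, with a median bound of 301-fold. With these features at their bound, the median log2 difference of all gained features was 6.73. These floors cover counting error only.

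A different group of 151 gained features already had at least 10 TPM in the vegetal blastomeres. These had a median of 147 TPM in the masses, against 18.4 TPM in the blastomeres, and a median log2 difference of 2.53. Only 1 of the 151 was a lncRNA model. The 12 gained features above 1000 TPM held 21.2% of the TPM of all gained features. Of these 12, 6 were under 10 TPM and 6 at 10 TPM or more in the blastomeres.

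The most abundant gained gene model was Xetrov90012972m.g, with 3970 and 7320 TPM in the masses, against 1.13, 0.63 and 0 TPM in the vegetal blastomeres. Both masses were far above every blastomere library. The log2 difference was 12.81 (SE 1.05, edgeR adjusted p = 0.0012). The second was Xetrov90014326m.g, with 1920 and 4400 TPM in the masses, against 128, 208 and 247 TPM in the vegetal blastomeres. It was thus abundant at both stages, and the masses lay above all 3 earlier libraries. Its log2 difference was 3.77 (SE 0.54, edgeR adjusted p = 0.0074).

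The features called lost were abundant RNAs that were mostly reduced rather than removed. The rule could hardly call a fall in a scarce RNA. Without the p, 740 features were at least 4-fold lower without overlap. The median level of the 325 lost features was 25.0 TPM in the masses, against 147 TPM in the vegetal blastomeres. All 325 had at least 10 TPM in the blastomeres, and 31 of them at least 1000 TPM. In the masses 259 of the 325 still averaged at least 10 TPM, and 2 were under 1 TPM in both masses, each with 0 estimated counts. Fewer cells with an RNA and less RNA per cell cannot be told apart in these bulk libraries.

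The most abundant lost gene model was Xetrov90006655m.g, with 451 and 83.9 TPM in the masses, against 4420, 4490 and 2270 TPM in the vegetal blastomeres. Its log2 difference was -4.17 (SE 0.80, edgeR adjusted p = 0.022). The masses differed widely from each other, yet both lay below all 3 earlier libraries. Xetrov90023313m.g had 271 and 145 TPM in the masses, against 2000, 2730 and 3000 TPM in the vegetal blastomeres. The groups stood well apart, with a log2 difference of -3.95 (SE 0.51, edgeR adjusted p = 0.0048). Without vegetal blastomere library 1 these 2 lost and the 2 gained models kept their direction, at edgeR adjusted p-values of 0.064 to 0.10, and without library 2 Xetrov90006655m.g had an edgeR adjusted p of 0.067.

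The 2 masses differed in how far the lost features had fallen. Mass 2 was lower than mass 1 in 295 of the 325 lost features, 90.8%, with a median log2 difference of mass 2 to mass 1 of -1.0. Over all tested features it was lower in 50.6%, with a median of -0.01. The gained features were lower in mass 2 in 37.4%, with a median of 0.35. The labels give both masses the same stage and the same time of harvest after fertilization. The lost features also held a smaller share of TPM in replicate 2 than in replicate 1 in every morpholino mass group and every cap group. That share was 1.93% and 1.30% in Vegt MO masses 1 and 2, and 4.07% and 2.28% in uninjected caps 1 and 2. What made replicates 1 and 2 differ was not tested.

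The balance of the library shifted with these features. Gained features held 10.6% and 13.0% of the TPM in the uninjected masses, against 0.519 to 0.600% in the vegetal blastomeres. Lost features held 2.22% and 1.10% in the masses, against 10.2 to 11.6% in the blastomeres. These shares describe the libraries that chose the features. In libraries that had no part in that choice, gained features held 7.19 to 10.8% in the 6 morpholino masses and 4.69 to 6.99% in the 16 caps. Lost features held 1.30 to 2.97% in the 6 morpholino masses and 2.28 to 4.07% in the 16 caps. In the 6 other 8-cell libraries gained features held 0.456 to 0.755% and lost features 10.6 to 12.5%.

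**Figure D2:**
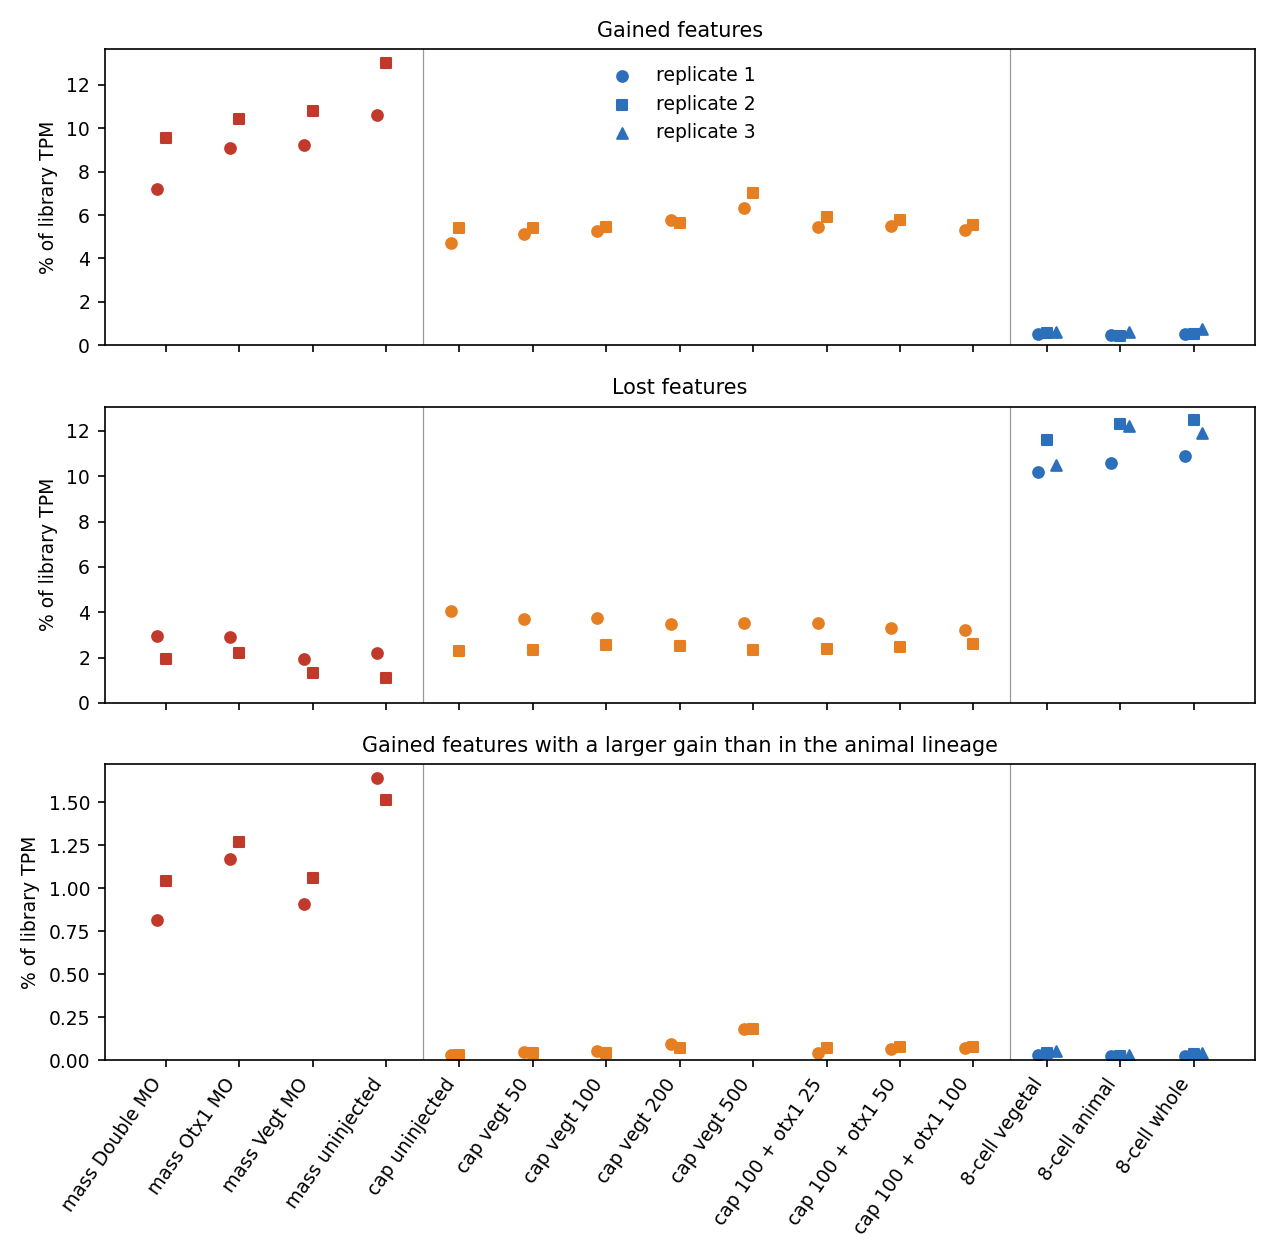
Percentage of each library's TPM (vertical) held by the 693 gained, the 325 lost and the 37 gained features with a larger gain than in the animal lineage, in all 33 RNA libraries by group (horizontal), with 1 point per library and its shape giving the replicate number. Gained features hold 10.6 and 13.0% in the uninjected masses and under 1% in every 8-cell library, and the lost features lie the other way round.

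The same contrast was then made with libraries that had chosen none of the features, the 6 morpholino masses against the 3 whole 8-cell embryos. This comparison was chosen after seeing the data, and it carries the morpholinos as well as the stage. Its libraries came from the same experiments as those that made the calls. A difference between experiments would thus recur here, and repeated calls cannot tell stage from experiment. There 16.7% of the tested features were gained and 4.88% lost by the same rule. Of the 693 gained features, 611 were called gained again, or 88.2%, and 680 lay above without overlap, as did 30.7% of all tested features. None (0) was called lost by edgeR. Of the 325 lost features, 278 were called lost again, or 85.5%, 323 lay below without overlap, as did 19.5% of all tested, and 0 were called gained. The median log2 difference was 5.0 over the gained features and -2.67 over the lost ones, against 0.22 over all 15641 tested features. The 6 masses share replicate numbers among themselves and with the uninjected masses, and the whole embryos with the vegetal blastomeres, and same-numbered libraries deviated together. They are thus not fully independent of the libraries that made the calls. With the 3 masses of each number summed to 1 library, edgeR called 12.8% of features gained and 3.88% lost. In that fit 610 of 690 tested gained features were gained again, 88.4%, and 267 of 325 lost features were lost again, 82.2%.

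Long non-coding RNAs took a larger share of the gains than of the losses. They were 115 of the 693 gained features, 16.6%, and 7 of the 325 lost features, 2.15%, against 12.6% of all tested features. Put the other way, 6.18% of tested lncRNA models were gained and 0.376% lost, against 4.49% and 2.47% of tested gene models. Every lost feature averaged at least 15 TPM in the vegetal blastomeres. Losses of lncRNA and gene models were not compared at a like level there. The gains can also be divided by level in the masses, a level that the gain itself helps to set. Among features with a mean of 10 to 100 TPM there, 54 of 320 lncRNA models were gained, 16.9%, against 301 of 6952 gene models, 4.33%. Between 100 and 1000 TPM, 31 of 48 lncRNA models were gained, 64.6%, against 255 of 2267 gene models, 11.2%. These shares are descriptions of the libraries that made the calls.

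Gained lncRNA models had a median of 27.6 TPM in the masses and ranged from 0.87 to 972 TPM, against a median of 0.177 TPM in the vegetal blastomeres. Gained gene models had a median of 90.7 TPM in the masses. Of the 115 gained lncRNA models, 25 had 0 counts in every vegetal blastomere library, as did 90 of the gained gene models.

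Part of the change was also called in the animal lineage, which used no library of the vegetal one. Both lineages started from 8-cell libraries of the same experiment, however, so they are not fully independent. A difference between experiments could recur in both, and shared calls cannot tell stage from experiment. By the same rule 1849 of 14986 tested features were gained in the uninjected caps relative to animal blastomeres, 12.3%, and 1191 were lost, 7.95%. Of the vegetally gained features 563 could be tested there and 356 were gained in both lineages. That was 63.2% of the 563 and 24.1% of the 1480 animal gains tested in the vegetal lineage. The vegetally gained features outside the 563 had too few counts in caps and animal blastomeres to be tested. All 693 had a median of 0.843 TPM in animal blastomeres and 19.4 TPM in uninjected caps, so many may have passed the filter only through the caps. The 63.2% is thus in part fixed by the filter and overstates the share among all 693. All 325 vegetally lost features could be tested, and 204 were lost in both lineages, 62.8% of the vegetal list and 17.4% of 1173 animal losses. In the animal lineage the median log2 difference was 2.92 over the 563 gained features, a value that the same filter in part fixes. It was -2.34 over the lost features, against 0.11 over all tested. The 204 gained and 121 lost features without a call there are not shown to differ between lineages. Leaving out cap 2 gave 1156 animal gains.

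Whether the change itself differed between lineages was tested as a difference of differences, the vegetal change minus the animal change. Masses and caps came from separate experiments, so lineage and experiment cannot be told apart in this difference. Of 16343 tested features, edgeR called 120 positive, 0.734%, and 46 negative, 0.281%, at a difference of at least 4-fold. Same-numbered vegetal and animal blastomeres deviated together (r of 0.39 to 0.43), as did same-numbered masses and caps (0.35). With the replicate number as a block within each stage, edgeR called 302 positive, 184 negative and 72 gained features positive. That fit was chosen after seeing the data. Of the 693 gained features 37 had a positive difference and 0 a negative one. Of the 325 lost features 2 had a positive and 3 a negative difference. Of all tested features, 2092 had an unadjusted p under 0.05. These counts rest on few libraries. Leaving out cap 1 or cap 2 gave 0 and 2 positive calls, leaving out any other library except vegetal blastomere library 3 gave between 20 and 69, and leaving out that library gave 265. Negative calls ranged from 1 to 138 over the 10 fits that each left out 1 library.

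**Figure D3:**
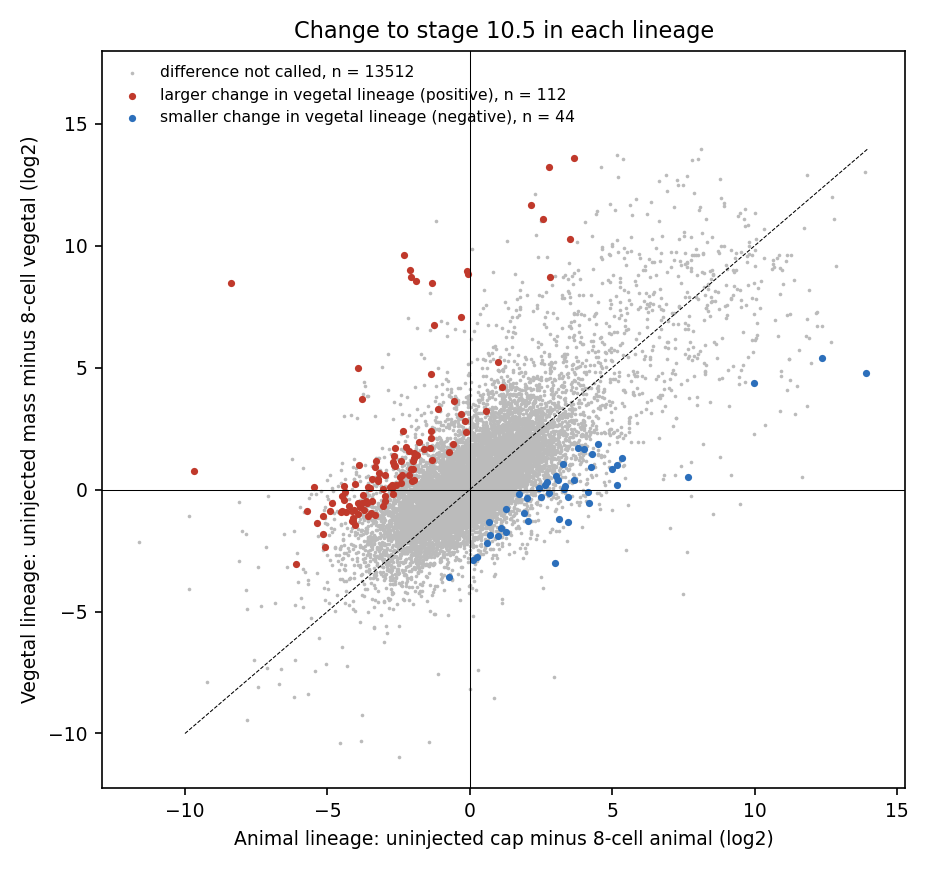
Log2 difference of uninjected masses to vegetal blastomeres (vertical) against uninjected caps to animal blastomeres (horizontal), 1 point per feature tested in both lineages, with equal change as a dashed line. Of the 120 positive and 46 negative lineage differences the plot holds those tested in both lineages, and many positive ones lie near 0 on the vertical axis and well below 0 on the horizontal one. In the legend, larger and smaller change mean a higher and a lower signed log2 difference in the vegetal lineage, not a change of larger or smaller size.

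The 37 gained features with a positive lineage difference were high in the vegetal masses and low in the other 3 groups, a pattern that their choice fixes in part. Their median level was 236 TPM in the uninjected masses, against 0.577 TPM in vegetal blastomeres. In the animal lineage it was 1.32 TPM in uninjected caps and 1.83 TPM in animal blastomeres. Of the 37, 16 were lncRNA models. The lineage differences ranged from 2.41 to 16.63 on the log2 scale.

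Most positive lineage differences were of another kind. Of the 120, 74 were features lost in the animal lineage, and 71 of these were not gained in the vegetal one. These 71 features had small changes in the vegetal lineage, which their choice fixes in large part. Their median was 85.4 TPM in the masses and 76.7 TPM in vegetal blastomeres, while it was 6.87 TPM in uninjected caps and 57.7 TPM in animal blastomeres. The median log2 difference was -0.16 in the vegetal lineage, with 69 of the 71 within 4-fold and 2 called lost, and -3.56 in the animal lineage. Their median level was 81.8 TPM in Double MO masses, 80.1 TPM in Otx1 MO masses and 89.3 TPM in Vegt MO masses.

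The negative lineage differences held 34 features that were gained in the caps. Their median was 26 TPM in the masses and 23.1 TPM in vegetal blastomeres, while it was 309 TPM in uninjected caps and 23.6 TPM in animal blastomeres. Of the 32 tested in the vegetal lineage, 28 lay within 4-fold there.

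Gene models with the highest level in each class of lineage difference show these patterns by library. Xetrov90015143m.g had 2830 and 2370 TPM in the masses, against 90.6, 204 and 213 TPM in the vegetal blastomeres. It had 5.22 and 5.43 TPM in the caps, against 4.75, 8.36 and 7.80 TPM in the animal blastomeres. Every vegetal library was thus above every animal one, already at the 8-cell stage. The log2 change was 3.63 in the vegetal lineage, and the lineage difference was 4.08 (SE 0.59, edgeR adjusted p = 0.013).

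Xetrov90016800m.g had 1760 and 2320 TPM in the masses, against 1.18, 0.11 and 0 TPM in the vegetal blastomeres. In the animal lineage it had 2.09 and 6.80 TPM in the caps, against 1.16, 0.77 and 0.73 TPM in the blastomeres. At the 8-cell stage it was near 0 in vegetal and animal blastomeres alike, and at stage 10.5 it was high in the masses. The lineage difference was 9.46 (SE 1.26, edgeR adjusted p = 0.012).

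On the animal side, Xetrov90013695m.g had 815 and 889 TPM in the masses, against 612, 640 and 431 TPM in the vegetal blastomeres. It had 4720 and 5540 TPM in the caps, against 560, 733 and 801 TPM in the animal blastomeres. Its level was thus similar in all 8-cell libraries, and the caps alone stood apart. The lineage difference was -2.50 (SE 0.44, edgeR adjusted p = 0.027). Xetrov90010680m.g had 150 and 137 TPM in the masses, against 236, 107 and 73.7 TPM in the vegetal blastomeres. In the caps it had 1650 and 1960 TPM, against 205, 110 and 118 TPM in the animal blastomeres. The vegetal groups overlapped and the animal ones did not, and the lineage difference was -3.80 (SE 0.71, edgeR adjusted p = 0.034). All 4 kept their direction in 16 alternative fits, most of which left out 1 library. Xetrov90015143m.g was called in 14 of them, Xetrov90016800m.g in 13, Xetrov90013695m.g in 7 and Xetrov90010680m.g in 8.

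**Figure D4:**
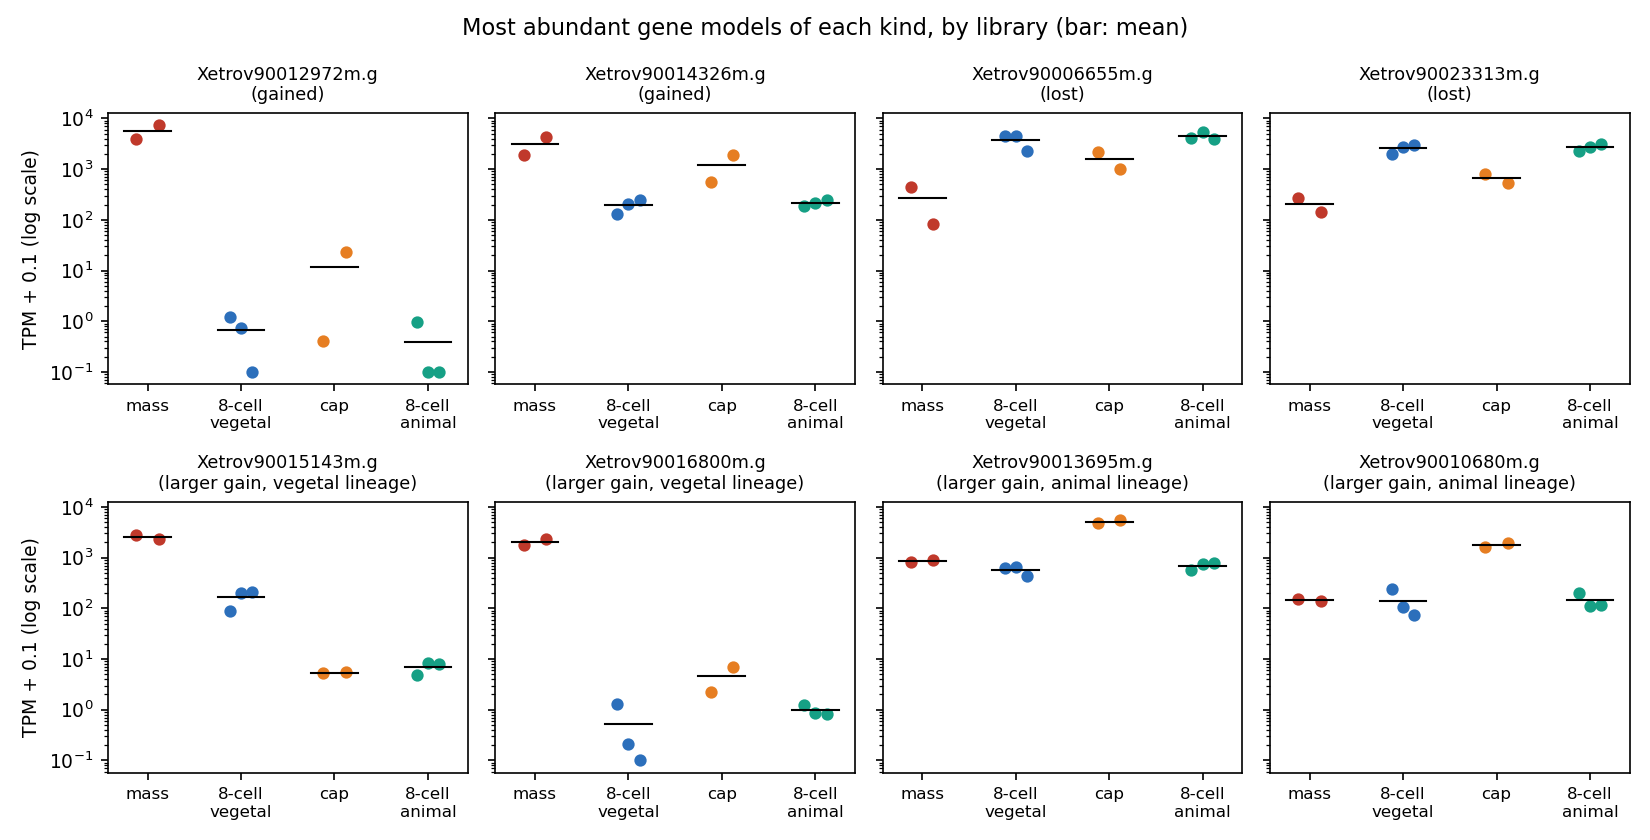
TPM + 0.1 (vertical, log scale) of the 8 named gene models in the uninjected masses, the vegetal blastomeres, the uninjected caps and the animal blastomeres (horizontal), with 1 point per library and a bar at the group mean. Xetrov90015143m.g is already higher in vegetal than in animal blastomeres, whereas Xetrov90016800m.g is near 0 in both and high only in the masses among these 4 groups.

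Only 3 features were gained in the vegetal and lost in the animal lineage, and they were chosen after their values were seen. Xetrov90028859m.g had 106 and 115 TPM in the masses, against 4.51, 9.20 and 7.16 TPM in the vegetal blastomeres. In the animal lineage it had 0.31 and 0.25 TPM in the caps, against 4.72, 1.75 and 4.10 TPM in the blastomeres. It was thus low everywhere at the 8-cell stage and moved opposite ways, with a lineage difference of 7.38 (edgeR adjusted p = 0.0121). Xetrov90019090m.g had 20.9 and 21.4 TPM in the masses, against 4.03, 3.17 and 2.53 TPM in the vegetal blastomeres. It had 0.87 and 0.74 TPM in the caps, against 3.75, 3.5 and 3.77 TPM in the animal blastomeres, and its lineage difference was 4.69 (edgeR adjusted p = 0.0121). The third was a lncRNA model with a lineage difference of 8.77.

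Was the gained or lost RNA already uneven along the animal-vegetal axis at the 8-cell stage? This was read from whole embryos against animal blastomeres, which leaves out the vegetal libraries that chose the features. Whole embryos include the animal cells, so an RNA confined to those cells can be only modestly lower in them. Counts of lower features and medians near 0 therefore cannot show that an RNA is even along the axis. Over all 13503 tested features edgeR called 22 higher in whole embryos, 0.163%, and 0 lower. Of the 693 gained features 387 had enough counts to be tested, with a median log2 difference of 0.07, against 0.01 over all tested. The 1 called higher was Xetrov90015143m.g, with 37.2, 86.3 and 104 TPM in whole embryos, against 4.75, 8.36 and 7.80 TPM in animal blastomeres. Its log2 difference was 3.38 (SE 0.50, edgeR adjusted p = 0.044). With it, 8 of the 387 gained features were higher and 1 lower at an unadjusted p under 0.05, against 121 higher and 19 lower of all 13503. All 325 lost features were tested, with a median of -0.01 and 0 called by edgeR in either direction, 1 being higher and 2 lower at an unadjusted p under 0.05. With the replicate number as a block, 53 of all features (0.393%), 2 gained and 0 lost features were called higher.

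The response to vegt RNA was read in animal caps from embryos injected with 500 ng against 50 ng, amounts and unit as the labels give them. These caps had chosen none of the features. Over all 16360 tested features edgeR called 5 higher, 0.0306%, and 1 lower, 0.00611%, with 400 higher and 247 lower at an unadjusted p under 0.05. With the replicate number as a block it called 259 higher, 1.58%, and 124 lower, 0.758%. Of the gained features 668 could be tested, of which 3 were called higher and 0 lower without the block, and 123 higher and 6 lower with it. At least 2-fold higher at 500 ng were 206 of the 668, 30.8%, against 5.13% of all tested features. The medians were 0.13 and 0.00 on the log2 scale, so most gained features differed little.

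Of the 37 features with a larger gain in the vegetal lineage, 33 could be tested in the caps, with a median log2 difference of 2.08 between 500 and 50 ng. Without the block edgeR called 0 of them, with 17 higher and 0 lower at an unadjusted p under 0.05. With the block it called 17 higher and 0 lower. The median within cap replicate 1 was 2.21 and within replicate 2 it was 2.22. The uninjected caps helped to choose the 37 features, and caps of the same number deviated together. At a median of 1.32 TPM in uninjected caps these features had little room to fall, so their direction is in part fixed by the choice. Despite the higher values at 500 ng, their level in the caps stayed far below that of the masses. They held 1.51 to 1.64% of the TPM in the uninjected masses, which helped to choose them. In the 6 morpholino masses, which did not, they held 0.814 to 1.27%. In the caps they held 0.0290 to 0.0297% of the TPM in uninjected caps, 0.0406 to 0.0472% at 50 ng, 0.0449 to 0.0548% at 100 ng, 0.0710 to 0.0950% at 200 ng and 0.182 to 0.184% at 500 ng.

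Gained features can be divided by their starting level. Of the 377 from under 1 TPM, 353 could be tested, with a median log2 difference of 1.08 between 500 and 50 ng, and 180 of them, 51.0%, were at least 2-fold higher and 17, 4.82%, at least 2-fold lower. Over all tested features these shares were 5.13% and 4.00%. Levels in the caps were not matched between the 2 sets, and small counts can give large fold differences. Of the 353, edgeR called 2 higher and 0 lower without the block, and 102 higher and 6 lower with it. Of the 151 that started from 10 TPM or more, the median was 0.02 and 2 were at least 2-fold higher. Lost features had a median of -0.01, and edgeR called 0 of the 325, with 0 at an unadjusted p under 0.05. Whether these kinds differ was not tested.

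Xetrov90016800m.g had 157 and 236 TPM in caps with 500 ng, against 6.36 and 15.1 TPM in caps with 50 ng. Both caps at 500 ng lay above both at 50 ng, yet without the block the log2 difference of 4.22 was not called (SE 0.91, edgeR adjusted p = 0.20). With the replicate block it was 4.25 (SE 0.72, edgeR adjusted p = 0.022). Xetrov90012972m.g had 212 and 836 TPM at 500 ng, against 5.22 and 57.8 TPM at 50 ng, a log2 difference of 4.08 without the block (SE 1.83, edgeR adjusted p = 1.00) and 4.30 with it (SE 0.84, edgeR adjusted p = 0.048). Xetrov90015143m.g had 1.89 and 4.58 TPM at 500 ng, against 2.34 and 4.15 TPM at 50 ng, and these values overlapped. All 3 gene models were gained in the masses. In the caps Xetrov90016800m.g and Xetrov90012972m.g had similar log2 differences without overlap, while Xetrov90015143m.g overlapped.

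**Figure D5:**
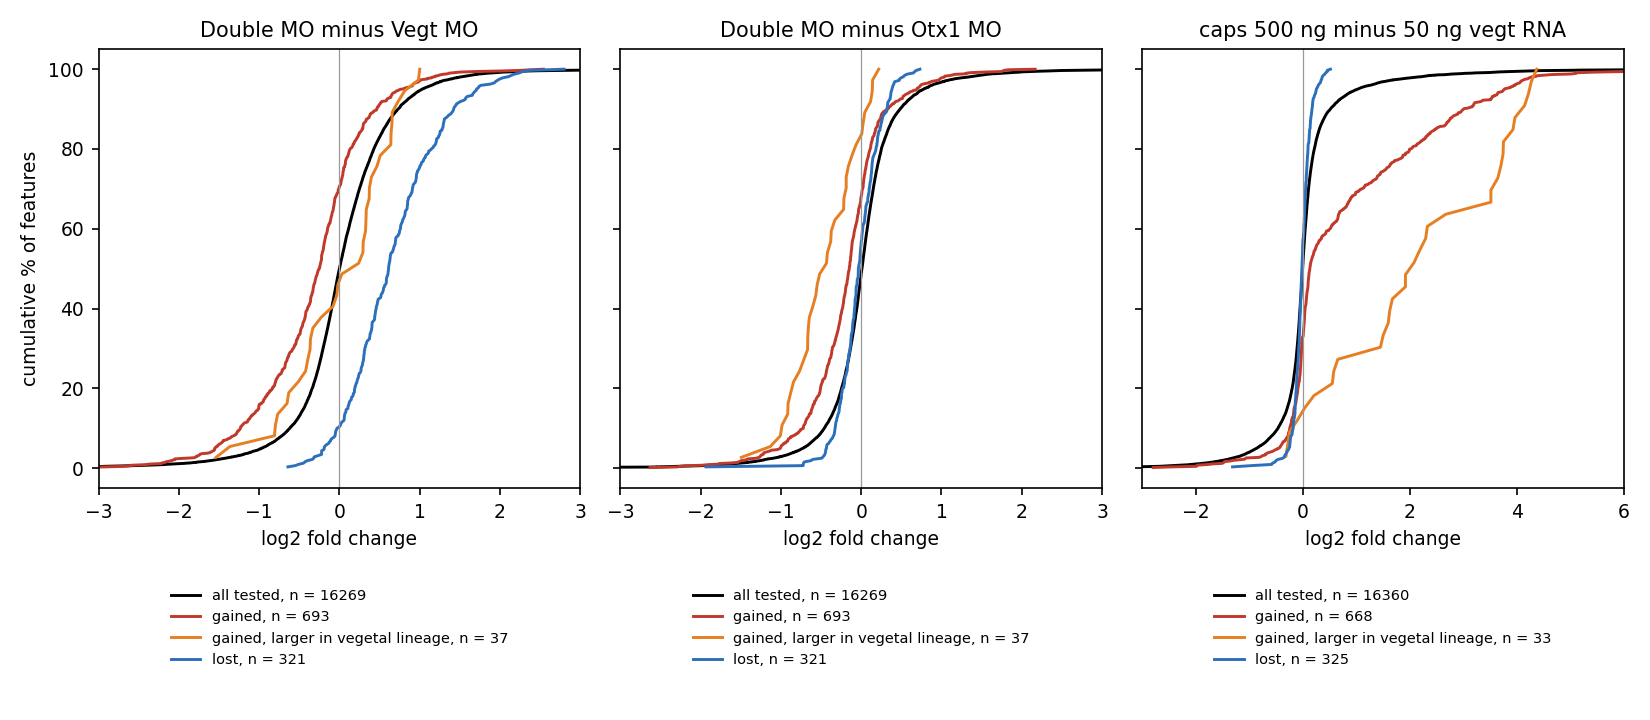
Cumulative percentage of features (vertical) by log2 difference (horizontal) for Double MO minus Vegt MO masses, Double MO minus Otx1 MO masses and caps with 500 ng minus 50 ng of vegt RNA, for all tested, gained, lost and the gained features with a larger gain in the vegetal lineage, with a few features beyond the axis ends. The lost features lie right of all tested features for Double MO minus Vegt MO, with a median of 0.61, and the gained features spread to the right in the caps.

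The masses injected with morpholinos against Vegt, Otx1 or both were set against each other, since the uninjected masses had chosen the features. Between Double MO and Vegt MO masses, edgeR called 0 of 16269 features higher (0%) and 0 lower (0%), with 431 higher and 557 lower at an unadjusted p under 0.05. With the replicate number as a block it called 336 higher, 2.07%, and 332 lower, 2.04%. The lost features lay mostly higher in Double MO masses. Of the 321 tested, 80 were at least 2-fold higher in Double MO, 24.9%, against 5.36% of all tested, and 0 were at least 2-fold lower. Their median log2 difference was 0.61, against 0.00 over all tested, and it was 0.61 within replicate 1 and 0.62 within replicate 2. With the block 73 were called higher and 0 lower. Without it 36 were higher and 1 lower at an unadjusted p under 0.05.

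Their share of TPM was 2.97% and 1.94% in Double MO masses, against 1.93% and 1.30% in Vegt MO masses, so both Double MO values lay above both Vegt MO values, the nearest pair by a small margin. Xetrov90006655m.g had 815 and 319 TPM in Double MO masses, against 268 and 65.4 TPM in Vegt MO masses. Both Double MO values were above both Vegt MO values, but the log2 difference of 1.71 was not called (SE 0.89, edgeR adjusted p = 0.85). With the block it was 1.85 (SE 0.43, edgeR adjusted p = 0.084).

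Gained features lay mostly lower in Double MO than in Vegt MO masses. The median log2 difference was -0.25, and 110 of 693, 15.9%, were at least 2-fold lower, against 4.70% of all tested. Without the block 9 were higher and 65 lower at an unadjusted p under 0.05. With the block 12 were called higher and 65 lower. The median was -0.39 within replicate 1 and -0.20 within replicate 2. The gained features held 7.19% and 9.54% of the TPM in Double MO masses, against 9.2% and 10.8% in Vegt MO masses. These shares overlapped, though Double MO was lower within each replicate number. Gained features that started from under 1 TPM had a median of -0.34, and those from 10 TPM or more one of -0.22. The 37 features with a larger gain in the vegetal lineage had a median of 0.24, with -0.30 within replicate 1 and 0.14 within replicate 2, so no direction can be given for them. The blocked edgeR fit called 5 higher and 1 lower. The fit without the block called 0, and 0 had an unadjusted p under 0.05.

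Between Double MO and Otx1 MO masses, edgeR again called 0 features higher (0%) and 0 lower (0%), with 166 higher and 208 lower at an unadjusted p under 0.05. With the block it called 19 higher, 0.117%, and 70 lower, 0.43%. The median log2 difference was -0.15 over the 693 gained features and -0.03 over the 321 lost ones, against 0.01 over all tested. Of the gained features 4 were called higher and 22 lower with the block, and 8 were higher and 23 lower at an unadjusted p under 0.05 without it. Of the lost features 0 were called in either fit.

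The 37 features with a larger gain in the vegetal lineage had a median of -0.43 in this contrast, -0.61 within replicate 1 and -0.36 within replicate 2. With the block 6 were called lower and 0 higher. Without it 0 were called, with 3 lower and 0 higher at an unadjusted p under 0.05. Xetrov90016800m.g had 541 and 1820 TPM in Double MO masses, against 1570 and 2530 TPM in Otx1 MO masses. These values overlapped, and the log2 difference was -0.77 (SE 0.66, edgeR adjusted p = 1.00).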

How the data were processed

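RNA libraries of 33 samples came in 3 tables. For each, the authors deposited estimated counts (expected counts, RSEM 1.2.12 with Bowtie2 2.2.7 per the submitters' processing notes) and TPM per feature. The genome build is not given in the sources used here. Estimated counts were rounded and joined by row identifier. The 5 libraries were scaled together by TMM and filtered with filterByExpr. The test was edgeR's quasi-likelihood F test (edgeR 4.0.16, robust, R 4.3.3), with Benjamini-Hochberg adjustment over all tested features. TPM gave the levels and shares. DESeq2 1.42.0 and limma 3.58.1 (log2(TPM + 1)) served as alternatives.

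In simulated counts for the 14745 features of the vegetal lineage, 51 of 100 features changed 8-fold were called in the right direction. Of 100 features changed 32-fold, 88 were, and 0 were called in the wrong direction at either size. The changed features were drawn once, from the more abundant features only, so these shares do not describe scarce ones. A further 24 unchanged features were called. False calls thus made up a larger share of the simulated calls than the adjusted p threshold is meant to allow. The gained and lost lists may therefore hold more false calls than that threshold implies. With only 100 features changed at each size, the simulation cannot give the share of false calls in those lists.

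Named gene models were those with the highest mean TPM per class, at most 2 per direction. Smaller counts are given without identifiers. None (0) of the identifiers matched the reference table of 28858 genes, so symbol lists could not be read and no sequences are shown. Members and lists were chosen with earlier results of these data known. Peak lists were not used here.

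Same-numbered libraries deviated together in the masses (r of 0.71 to 0.82), the caps (0.67 to 0.89) and the 8-cell table (0.43 to 0.68), so blocked values are given within those tables.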

Additional observations from a re-analysis of the deposited data

Results flagged for a closer look

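By an edgeR test of the difference itself, the change from the 8-cell stage to stage 10.5 differed between the vegetal and the animal lineage. The difference was positive for 120 features, 0.734% of those tested, and negative for 46, 0.281%. These counts rest on few libraries. Masses and caps came from separate experiments, so lineage and experiment cannot be told apart here. Among the named gene models the lineage difference was 4.08 on the log2 scale for Xetrov90015143m.g and 9.46 for Xetrov90016800m.g. It was -2.50 for Xetrov90013695m.g and -3.80 for Xetrov90010680m.g. Without cap 1, all 4 kept their direction and had edgeR adjusted p-values of 0.088, 0.075, 0.081 and 0.088, in that order.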

How the results depend on the processing

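The gained and lost features of the vegetal lineage numbered 693 and 325. They numbered 798 and 216 by library totals alone, which moved the median log2 difference of all features to 0.44, against 0.23. The counts were 1149 and 498 with no filter on low counts, 1416 and 565 by DESeq2, 1702 and 299 by limma on TPM, 2552 and 703 with all RNA libraries in the fit, and 2961 and 740 without a p. The size of the lists thus depends on the test. Each of these settings and the replicate block, taken singly, shared at least 649 of the 693 gained and 216 of the 325 lost features. The features called under all of them at once were not counted. The list without a p holds all 693 and 325 by construction. The lists were less stable to the choice of libraries. Without vegetal blastomere library 1, 0 gained and 0 lost features were shared. Without library 2 these numbers were 307 and 57, and without library 3 they were 669 and 307.

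Replicate numbers did not pair the masses with the vegetal blastomeres (r of -0.04 and -0.03). With a replicate block 1290 were gained and 620 lost, and 202 lineage differences were positive and 103 negative. With a replicate block within each stage, 302 were positive, 184 negative and 72 gained features positive. Leaving out 1 library gave 0 to 1697 gained and 0 to 657 lost features, 1156 to 1951 animal gains, 0 to 265 positive and 1 to 138 negative lineage differences, and 0 to 63 gained features with a positive one. Negative differences numbered 23 by library totals. Positive, negative and gained positive ones numbered 352, 280 and 124 with no filter, and 418, 240 and 123 by DESeq2.

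Within tables, where the numbers pair libraries, the replicate block gave the calls below, where the fit without it gave 0 unless a count is given. Gained features had 4 higher and 22 lower in Double MO against Otx1 MO, and 12 higher and 65 lower against Vegt MO. Lost features had 73 higher against Vegt MO. The 37 features with a larger vegetal gain had 6 lower against Otx1 MO, and 5 higher and 1 lower against Vegt MO. In caps with 500 ng, 123 gained features were higher (3 without the block) and 6 lower, as were 17 higher of the 37. In whole embryos 2 gained features were higher (1 without the block).

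The vegetal log2 difference of Xetrov90010680m.g, not called, was -0.31 but 0.22 by limma, and -0.62 to 0.40 with 1 library left out. The cause was not tested. With 2 masses and 3 blastomere libraries, many differences of at least 4-fold without overlap missed the threshold.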
